A study of Mus musculus with 4 samples.

Results

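The insulin receptor and its intracellular relay were followed here through 10 genes, Insr, Igf1r, Irs1, Irs2, Pik3r1, Akt1, Akt2, Foxo1, Igfbp1 and Igfbp2, whose array probes were picked by gene symbol in the platform annotation. They are 10 of the 16593 named genes and were represented by 14 of the 25697 probes of an Illumina mouse expression array. Total liver RNA had been hybridised from 2 control samples, labelled WT Shp2Floxed/Floxed, and 2 knockout samples, labelled Shp2hep-/-. All samples came from mice 2 months old that were not fasted. The controls carry loxP-flanked alleles of the gene for the tyrosine phosphatase Shp2 (Ptpn11), and the knockouts were positive for albumin-Cre, a recombinase driven by the albumin promoter and so active in hepatocytes, while other liver cells are expected to keep the gene. The labels name no Cre for the controls and do not say whether a sample came from 1 mouse or from pooled mice, so p-values measure only the spread between these samples, which may be technical.

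Insulin binds its receptor tyrosine kinase, which phosphorylates the docking proteins IRS1 and IRS2. These recruit phosphoinositide 3-kinase through its regulatory subunit, and the lipid it makes activates the AKT kinases, which phosphorylate the transcription factor FOXO1 and drive it out of the nucleus. In liver FOXO1 is known to activate genes that insulin restrains, among them Irs2 and Igfbp1. Shp2 binds phosphotyrosines of receptor and docking proteins, IRS1 included, so the arrays allow the question of how transcripts of this relay stood in livers whose hepatocytes lack it.

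Among the 10 genes, 3 held in the promoter windows of RefSeq (assembly GRCm38.p6, from 250 bases before to 50 bases after an annotated start) the 8 letters CAAAACAA or their reverse complement TTGTTTTG, the core of the insulin response element for which the Igfbp1 promoter is known. They are the genes for the docking proteins, one without and one with a large difference between the groups, and the gene for the insulin-restrained binding protein, and their windows are shown for that reason with the 8 letters in capitals. The Irs1 window lies at chr1:82291390-82291689 on the minus strand, the Irs2 window at chr8:11008880-11009179 on the minus strand and the Igfbp1 window at chr11:7197537-7197836 on the plus strand.
Irs1: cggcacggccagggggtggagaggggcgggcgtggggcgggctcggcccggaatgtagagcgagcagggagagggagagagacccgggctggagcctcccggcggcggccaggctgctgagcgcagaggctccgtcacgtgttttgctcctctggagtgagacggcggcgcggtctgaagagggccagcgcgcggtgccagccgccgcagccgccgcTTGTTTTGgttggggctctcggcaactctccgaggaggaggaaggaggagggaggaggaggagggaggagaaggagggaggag
Irs2: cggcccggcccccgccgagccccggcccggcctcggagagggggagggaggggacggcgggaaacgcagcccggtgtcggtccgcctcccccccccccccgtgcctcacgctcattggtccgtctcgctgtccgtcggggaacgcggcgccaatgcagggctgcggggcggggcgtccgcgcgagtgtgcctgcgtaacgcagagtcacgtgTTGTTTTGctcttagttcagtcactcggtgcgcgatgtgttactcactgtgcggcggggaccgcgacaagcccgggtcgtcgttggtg
Igfbp1: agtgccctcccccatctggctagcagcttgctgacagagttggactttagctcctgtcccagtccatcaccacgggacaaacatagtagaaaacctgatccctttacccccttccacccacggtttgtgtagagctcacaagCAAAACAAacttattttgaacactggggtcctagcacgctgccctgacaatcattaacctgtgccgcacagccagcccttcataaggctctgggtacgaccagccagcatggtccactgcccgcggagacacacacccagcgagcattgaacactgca
The capitals begin 33 bases before the annotated start of Irs1, 38 bases before that of Irs2 and 108 bases before that of Igfbp1. Both strands were searched in the 15 windows of the 9 member genes that the table matched by symbol, and the 3 windows shown were the ones with a match. Of all 32851 windows 2.51% held the letters. The FOXO consensus core GTAAACA, which does not overlap the other motif in any of these windows, was found in 1 of the 15, a window of Akt1, and in 3.65% of all windows. A match is a description of letters, and none of these arrays measured binding.

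The 4 arrays lay on 1 BeadChip and had the same mean intensity in the deposited table, with 11542 to 12328 probes detected above background per array (detection p under 0.05). Across tested probes Pearson's r of the log2 values was 0.983 for the pair of controls, 0.98 for the pair of knockouts and 0.961 to 0.972 for arrays of different groups; probes are not independent replicates. Array position and group cannot be told apart on this BeadChip. The 3 detected probes of Ptpn11 differed by -1.13, -1.26 and -1.33 on the log2 scale, both knockouts below both controls in each, and limma's adjusted p was 0.102, 0.101 and 0.0745; where these probes lie relative to the deleted sequence was not analysed here. Of the hepatocyte markers 10 of 12 genes were detected well enough to be tested, with a median difference of -0.05 over 13 probes; the probe of Alb lay near background, at log2 values of 5.58 to 6.05, and Tat was not detected on any array. Kupffer cell and monocyte markers had a median of 0.91 over 14 probes, 13 of them positive, against 5972 of all 12197 tested probes. Of the 14, 1 had passed the detection filter through the knockout arrays alone, which fixed its direction. Over the 12 probes detected on all 4 arrays the median was 0.91, with 12 positive, against 4861 of all 10152 such probes. Summed intensities of the 14 probes were 9610 and 5600 in the controls against 14375 and 13706 in the knockouts. Of the 15 genes of that list on the array 11 were tested, and Ccr2, Itgam, Cd5l and Fcgr1 were not detected on any array. Stellate cell and matrix markers had a median of 0.42 over 13 probes and endothelial markers 0.06 over 13. Red blood cell markers had a median of 1.29 over 3 probes, with summed intensities of 19011 and 11829 in the controls against 30584 and 32327 in the knockouts.

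**Figure D1:**
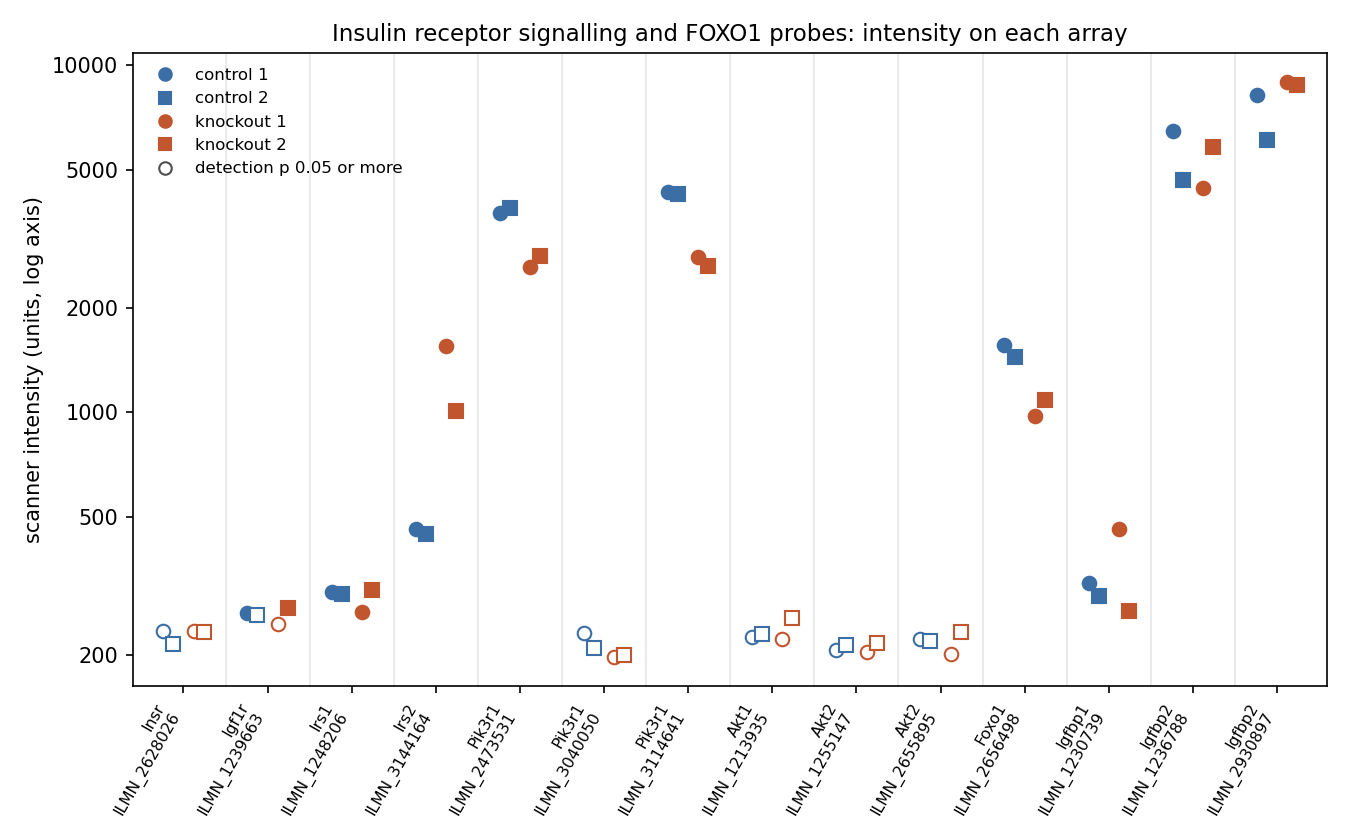
Scanner intensity (units, log axis) of the 14 probes on each of the 4 arrays; filled points passed the detection limit and open points did not. The Irs2 knockout points (1007 and 1547) sit above both controls, the Foxo1 points and the points of both bright Pik3r1 probes sit below their controls, and 5 probes were not detected on any array.

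In knockout liver the signal of Irs2 was higher, and those of Pik3r1 and Foxo1 lower, than in control liver on every array, but no member passed the test over all probes. Testing asked for detection on 2 or more of the 4 arrays, and 9 of the 14 probes, from 7 of the 10 genes, met it; the Igf1r probe passed through 1 array of each group, and the other 8 were detected on all 4 arrays. With limma's test, adjusted by Benjamini-Hochberg over all 12197 tested probes, 0 of the 9 member probes were called at an adjusted p under 0.05, where 0.377% of all tested probes (46) were. At an unadjusted p under 0.05, 1 member probe was higher (Irs2), against 8.27% of all tested probes, and 3 were lower (Foxo1 and 2 probes of Pik3r1), against 6.80%. Both knockout arrays lay above both control arrays for 2 member probes (23.2% of all tested probes did) and below them for 3 (24.3%). The median difference over the 9 probes was -0.16, and -0.01 over all tested probes. In bulk liver RNA, fewer cells of a type and less RNA per cell cannot be told apart.

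The receptors gave little signal. The probe of Insr, the insulin receptor, read 234.5 and 214.7 intensity units in the controls against 233.5 and 233 in the knockouts, with detection p from 0.144 to 0.791, so it was not above background on any array and no difference is given. Igf1r encodes the related receptor for insulin-like growth factors, which hepatocytes are known to express at low levels. Its probe read 264.4 and 259.9 units in the controls against 245.9 and 272.7 in the knockouts, and it was detected on control 1 and knockout 2 alone. The groups overlapped, and the log2 difference (knockout minus control, here and below) was 0.07 with a 95% interval of -0.48 to 0.63 (SE 0.22, n = 2 per group, limma adjusted p = 0.917). The interval leaves room for a change of either sign at this brightness.

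The docking proteins differed from each other in their pattern. Irs2, the docking protein whose transcript is known to vary in liver with feeding, read 459.1 and 445.6 units in the controls against 1547 and 1007 in the knockouts. On the normalized log2 scale the controls were at 7.99 and 8 and the knockouts at 10.34 and 9.59. Both knockouts lay far above both controls, knockout 1 more so than knockout 2, and the 2 controls were almost equal. The difference was 1.97 (SE 0.29, 95% interval 1.24 to 2.7), 3.92-fold higher in knockout, with a limma adjusted p of 0.0772. Only 0.746% of all tested probes differed by as much in either direction, and its p ranked 128 of 12197. Without background correction the ratio of mean scanner intensities was 2.82. Irs2 was past the threshold under 3 of 10 alternatives that kept all arrays, with adjusted p from 0.00845 to 0.144, and its difference ran from 1.6 to 2.34 when an array was left out. The summed Kupffer cell and monocyte markers of the same arrays were 9610 and 5600 in the controls against 14375 and 13706 in the knockouts; the part of those cells in the Irs2 difference was not tested.

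Irs1, the other docking protein and one that Shp2 is known to bind, was dim. Its probe read 304 and 299.6 units in the controls against 265.5 and 307.3 in the knockouts, detected on every array. Knockout 1 lay below both controls, while knockout 2 lay between them on the log2 scale (6.66 and 6.5 in controls, 6.08 and 6.56 in knockouts), so the groups overlapped. The difference was -0.26 (SE 0.24, 95% interval -0.85 to 0.34, adjusted p = 0.662). Its promoter window holds the same 8 letters as that of Irs2, and the interval for Irs1 ends below the interval for Irs2; the difference between the genes was not tested.

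Pik3r1, which encodes the regulatory subunit of phosphoinositide 3-kinase that docks on IRS proteins, was lower in knockout on both of its bright probes. Probe ILMN_3114641 read 4300 and 4254 units in the controls against 2799 and 2632 in the knockouts. Probe ILMN_2473531, which the annotation pairs with another transcript of the gene, read 3745 and 3890 in the controls against 2614 and 2821 in the knockouts. On each probe both knockouts lay below both controls and the arrays of a group were close together, with log2 gaps between replicates of 0.03 to 0.15. The differences were -0.76 (SE 0.18, 95% interval -1.22 to -0.3, adjusted p = 0.179) and -0.59 (SE 0.19, 95% interval -1.07 to -0.11, adjusted p = 0.255), which are 1.69-fold and 1.51-fold lower. They share their RNA samples and are not independent evidence of one another. As large a difference in either direction was seen in 9.65% and 16.7% of all tested probes. ILMN_3114641 passed the threshold under 2 of 10 alternatives with all arrays (adjusted p from 0.0309 to 0.251) and ILMN_2473531 under 0 of 9 (0.0767 to 0.363). A further probe, ILMN_3040050, is annotated to the same transcript as ILMN_3114641 and read 230.3 and 209.4 units in the controls against 196.8 and 199.5 in the knockouts. It was not detected on any array, so that 2 probes assigned to 1 transcript gave a bright signal and none above background; their sequences were not analysed here.

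The AKT kinases could not be compared. Akt1 read 224.5 and 230 units in the controls against 221.4 and 255.9 in the knockouts, with 0.0957 as its lowest detection p. Akt2, the isoform known as the main insulin-responsive one in liver, has the probes ILMN_1255147, at 204.1 to 216.5 units, and ILMN_2655895, at 200.5 to 232.2 units. None of the 3 probes was above background on any array, and no fold is given.

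Foxo1, the transcription factor restrained by AKT, read 1567 and 1447 units in the controls against 973.5 and 1084 in the knockouts. Its log2 values were 10.42 and 10.38 in the controls against 9.53 and 9.73 in the knockouts. Both knockouts lay below both controls, and the replicates of a group were 0.04 and 0.21 apart. The difference was -0.77 (SE 0.19, 95% interval -1.25 to -0.28), 1.70-fold lower in knockout, with a limma adjusted p of 0.188, and 9.44% of all tested probes differed by as much. Its difference stayed between -0.87 and -0.64 under all 14 alternatives, and its adjusted p was 0.0531 or more in each. The array reports the Foxo1 transcript and not the phosphorylation or location of the protein, through which insulin is known to act on it.

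**Figure D2:**
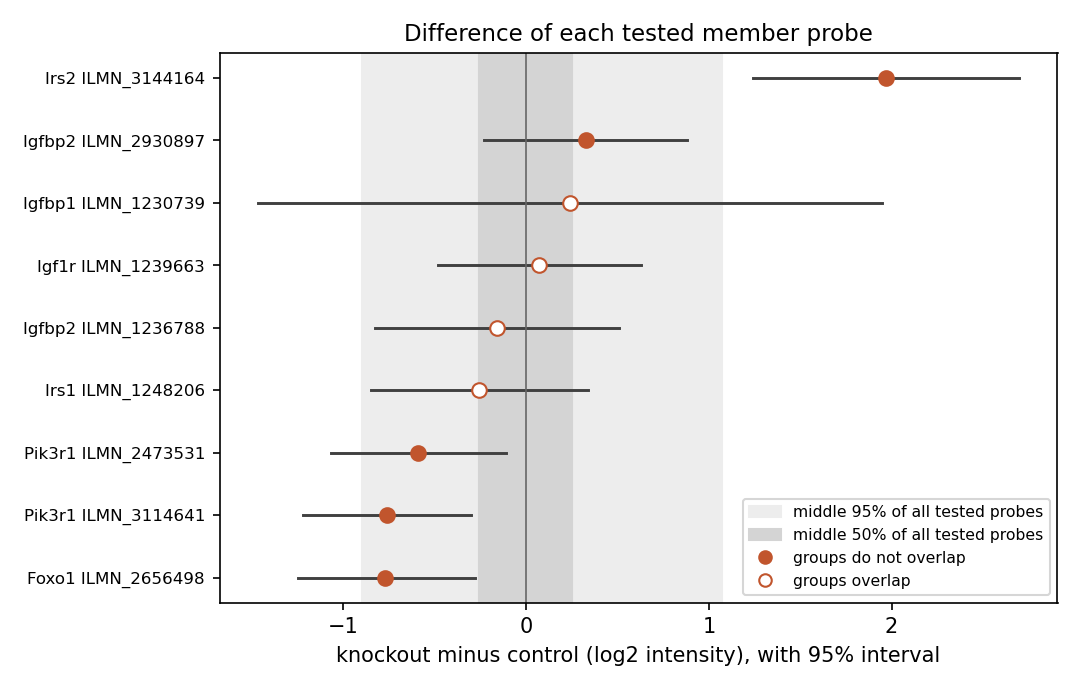
Difference in log2 intensity (knockout minus control) of the 9 tested member probes, with the 95% interval from limma; grey bands hold the middle 50% and 95% of differences over all tested probes. Only the Irs2 interval (1.24 to 2.7) lies wholly outside the wider band (-0.9 to 1.07), and filled points mark probes whose groups did not overlap.

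The insulin-like growth factor binding proteins showed no shared direction. Igfbp1, a secreted binding protein that insulin restrains and fasting raises, read 322.1 and 295.6 units in the controls against 461.5 and 267.2 in the knockouts. Knockout 1 lay above both controls and knockout 2 below both, at log2 values of 7.94 and 5.85 around controls of 6.89 and 6.42. The gap of 2.09 between the knockouts was wider than that of 99.8% of all tested probes, whose median gap was 0.27. The difference of the means was 0.24 (SE 0.68, 95% interval -1.47 to 1.95, adjusted p = 0.909), and it became -0.8 without knockout replicate 1 and 1.28 without knockout replicate 2. Irs2 was also higher in knockout 1 than in knockout 2, by 0.75 against the same median gap, while Foxo1 differed by 0.21 in the other direction.

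Igfbp2, the other binding protein, was measured by 2 bright probes annotated to the same transcript. ILMN_1236788 read 6481 and 4663 units in the controls against 4436 and 5813 in the knockouts, and its groups overlapped. ILMN_2930897 read 8237 and 6111 in the controls against 8968 and 8764 in the knockouts, with both knockouts above both controls. The differences were -0.16 (SE 0.26, 95% interval -0.83 to 0.51, adjusted p = 0.826) and 0.33 (SE 0.22, 95% interval -0.23 to 0.88, adjusted p = 0.545). The log2 value of the second probe minus that of the first was 0.33 and 0.37 in the controls against 1.08 and 0.6 in the knockouts, so the probes moved apart by 0.49 in knockout, and this change was not tested. Control 1 exceeded control 2 on both probes by over 0.4, more than the separation of either mean.

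**Figure D3:**
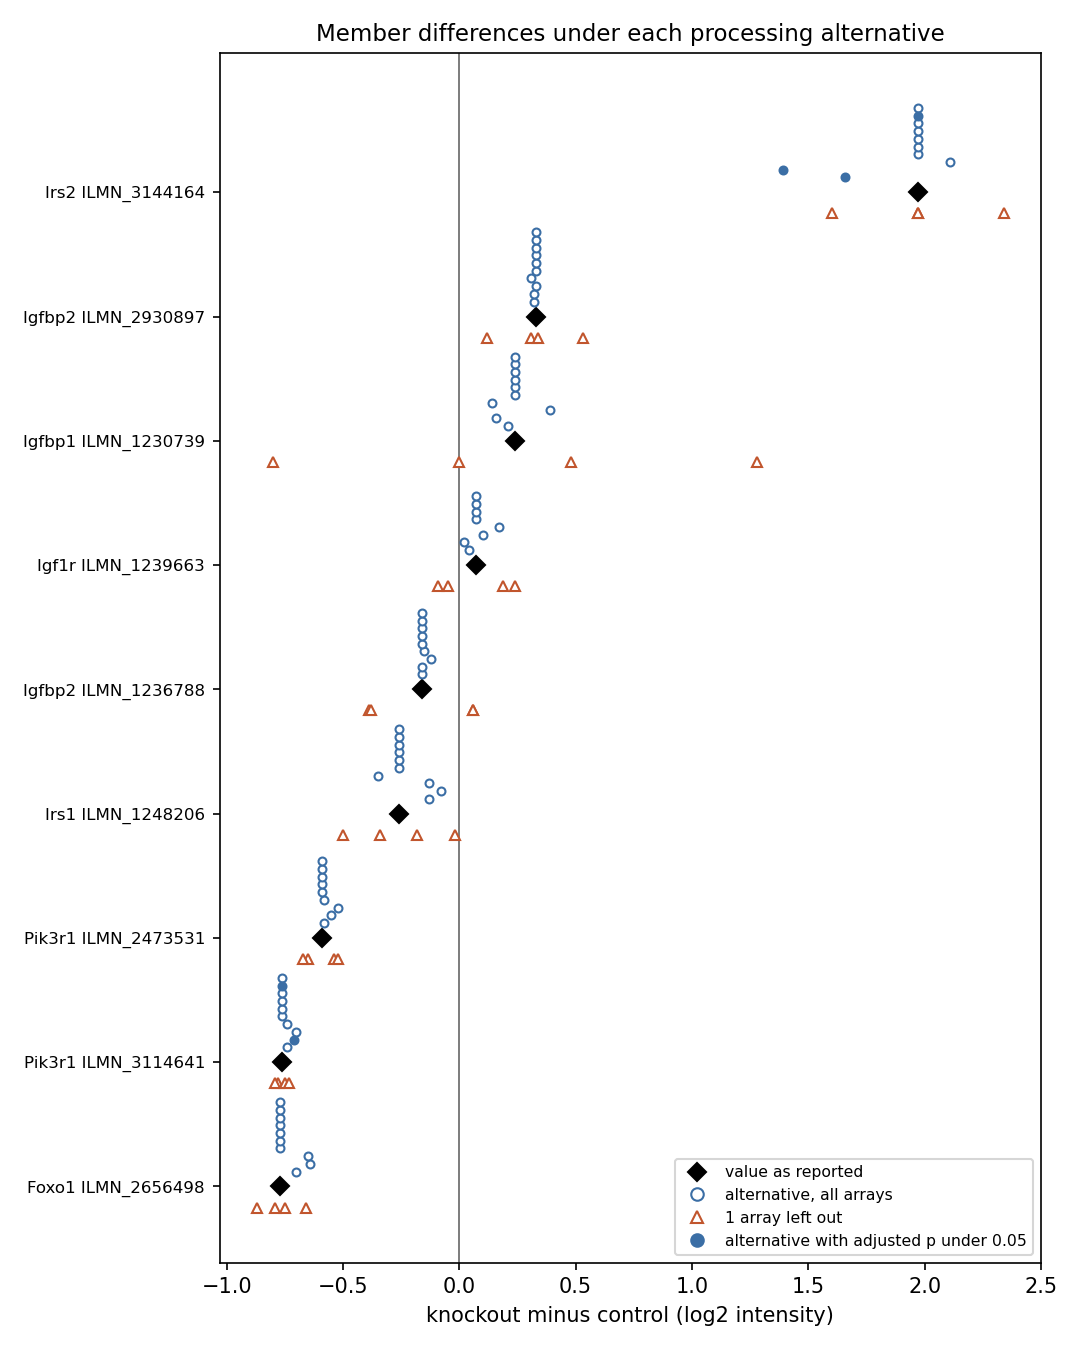
Log2 difference (knockout minus control) of each tested member probe as reported (diamonds), under the alternatives that kept all arrays (circles) and with 1 array left out (triangles); filled circles passed an adjusted p of 0.05. Irs2, Foxo1 and both Pik3r1 probes kept their direction throughout, whereas Igfbp1 ran from -0.8 to 1.28 and Igf1r from -0.09 to 0.24 with 1 array left out. Where the groups did not overlap, as for Irs2, Foxo1 and both Pik3r1 probes, leaving out 1 array could not turn the direction.

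The rest of the pathway was described through a list of 84 further genes, 75 of them on the array and 61 with a tested probe (75 probes). Adjusted over all probes, 0 of the 75 were called, against 0.377% of all tested probes. At an unadjusted p under 0.05, 10 were higher and 2 lower, against 8.27% and 6.80% of all tested probes. The median difference was 0.06. Both knockouts lay above both controls for 19 probes and below for 13, against 23.2% and 24.3% of all tested probes. Of the 10 higher probes 4 (Grb2, Sos1, Pik3cd and Pde3b) had passed the detection filter through the knockout arrays alone, which fixed their direction, and 0 of the 75 had passed through the control arrays alone. Over the 62 probes detected on all 4 arrays, 4 were higher and 2 lower at an unadjusted p under 0.05, both knockouts lay above both controls for 11 and below for 13, and the median was 0.02. Of all 10152 probes detected on all 4 arrays, 717 were higher and 634 lower at that unadjusted p. Both knockouts lay above both controls for 2342 of them and below for 2595, and their median was -0.02.

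Among docking and adaptor genes the median over 9 probes was -0.07. Grb2, the adaptor that links phosphorylated receptors to the Ras exchange factor SOS, and Sos1, which encodes that factor, were not above background on either control array and were detected on both knockout arrays, at least 1.32-fold and 1.18-fold higher. These values are given without a p, since such probes were tested because of their knockout signal. Each bound sets the knockout mean against the higher of the probe's own control value and the dimmest detected value of that array. These bounds, here and below, hold for the background-corrected values alone and carry no sampling error. Without background correction the log2 differences were 0.32 for Grb2, 0.22 for Sos1, 0.23 for Pik3cd and 0.19 for Pde3b, each below its bound. The adaptor genes Sh2b1 and Sh2b2 had differences of -0.33 (SE 0.22, with -0.01 on a second probe) and -0.42 (SE 0.34). In the list of phosphoinositide enzymes (14 probes, median 0.09) Pik3cd, a catalytic subunit known mainly from leukocytes, was detected on the knockout arrays alone and is likewise given without a p, at least 1.57-fold higher; Kupffer cell and monocyte markers were higher in the same samples; their part in it was not tested. Inpp5k, a phosphatase of the lipid signal, had a difference of 1.03 (SE 0.34, adjusted p = 0.266) with knockout 1 at 8.72 and knockout 2 at 7.78 against controls of 7.26 and 7.18. Pik3c2a was at 0.29 (SE 0.27), and the Inppl1 probe with the smallest p at -0.33 (SE 0.29), with its 2 other probes at 0.08 and 0.05.

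Below AKT, 14 probes had a median of 0.02. Pde3b, the phosphodiesterase that AKT activates, was also detected on the knockout arrays alone, at least 1.20-fold higher. The translation repressor gene Eif4ebp1 had a difference of -0.38 (SE 0.2), and the glycogen synthase kinase genes Gsk3a and Gsk3b had -0.72 (SE 0.41) and -0.39 (SE 0.25), each with an adjusted p above 0.4. For the IGF system beyond the members the median of 8 probes was -0.05, with Igfbp7 at 0.53 (SE 0.22), Igfbp3 at 0.74 (SE 0.39), Igfbp4 at -0.32 (SE 0.19) and -0.2 on its 2 probes, and Igfals, the subunit that stabilises circulating IGF complexes, at -0.33 (SE 0.22).

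Genes that inhibit the pathway had the highest median of the lists, 0.37 over 10 probes. Of these 8 were positive, against 5972 of all 12197 tested probes, and 5 had both knockouts above both controls, against 23.2%. Over the 8 probes detected on all 4 arrays the median was 0.26. Among them 3 had both knockouts above both controls, against 2342 of all 10152 such probes. The 2 negative probes of the list were those of Deptor, at -0.27 (SE 0.24) and -0.1 (SE 0.28). Ptpn2, Socs1, Trib1 and Prkcq were not detected on any array. Socs3, a suppressor of cytokine signalling that also targets IRS proteins, had log2 values of 8.5 and 8.03 in the controls against 9.73 and 10.36 in the knockouts. Its difference was 1.78 (SE 0.3, 95% interval 1.02 to 2.54, adjusted p = 0.104), and it passed the threshold under 3 of 10 alternatives with all arrays (adjusted p from 0.0149 to 0.167). Trib3, a pseudokinase reported to bind AKT, had 1.05 (SE 0.24, adjusted p = 0.168), detected on 1 of the 2 control arrays. The receptor-binding adaptor Grb14 had 0.62 (SE 0.19) and 0.4 (SE 0.25) on its 2 probes, and the AKT phosphatase gene Phlpp1 had 0.44 (SE 0.27), also detected on 1 of the 2 control arrays. The Kupffer cell and monocyte sums were higher in the same arrays, and their part in the Socs3 difference was not tested.

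Targets of FOXO1 and insulin in liver, the members left out, had a median of 0.05 over 20 probes, 10 of them positive and 10 negative. The list mixes genes that insulin restrains with genes that it raises, so these counts cannot show whether either kind moved together. The gluconeogenic gene Pck1 had a difference of -0.08 (SE 0.23) and G6pc -0.69 (SE 0.46). The coactivator gene Ppargc1a had 0.17 (SE 0.38) and Pdk4, an inhibitor of pyruvate oxidation, 0.4 (SE 0.25). These 4 were picked after their values were seen, as the best known targets. G6pc was at 13.5 and 13.65 in the controls against 13.58 and 12.19 in the knockouts, so its lower mean came from knockout 2. Its groups overlapped, as did those of Pck1 and Ppargc1a. Ccng2, a cyclin gene that FOXO factors activate, had log2 values of 7.1 and 5.2 in the controls against 7.95 and 8.36 in the knockouts, a difference of 2.01 (SE 0.62, adjusted p = 0.244). It was detected on 1 of the 2 control arrays, and the difference was 2.95 without control replicate 1 and 1.06 without control replicate 2. Bcl6, a transcriptional repressor gene, had 1.09 (SE 0.41, adjusted p = 0.308). On the lipogenic side, where insulin is known to act through SREBP1, Srebf1 had -1.23 (SE 0.3, adjusted p = 0.183) and the glycolytic gene Pklr -1.17 (SE 0.28, adjusted p = 0.178) on one probe and -0.39 (SE 0.32) on the other. The lipogenic gene Fasn went the other way, at 0.44 (SE 0.46), and its groups overlapped. Srebf1 was at 11.2 and 10.47 in the controls against 9.48 and 9.74 in the knockouts, and passed the threshold under 1 of 10 alternatives with all arrays.

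**Figure D4:**
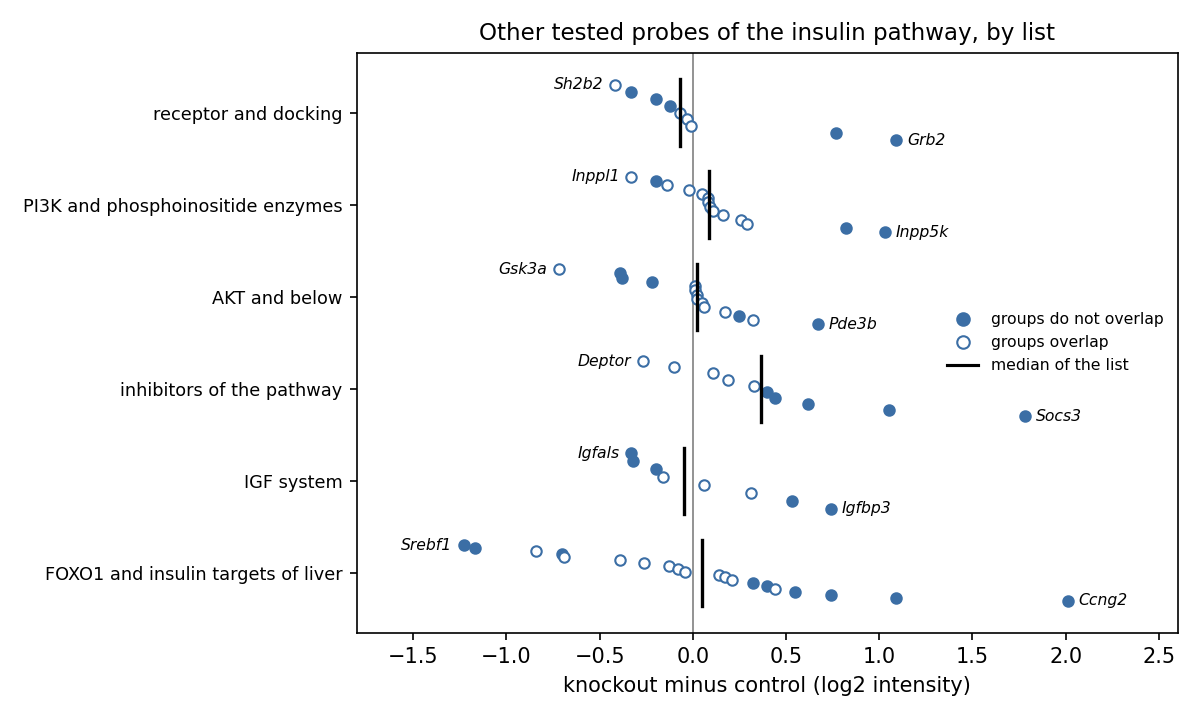
Log2 difference (knockout minus control) of the 75 other tested probes of the pathway, by list, with the list's median as a bar and filled points where the groups did not overlap. Medians lie between -0.07 and 0.09 except for the inhibitors, at 0.37, and the lowest and highest gene of each list are named.

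The genes whose pattern over the 4 arrays was most like that of Irs2, by Euclidean distance between log2 values centred on their own mean, were Igf2bp3, Mrnip and Cln6, at distances of 0.178, 0.251 and 0.265. Igf2bp3, an RNA-binding protein gene, was not above background in the controls, so its distance rests in part on control values at background, and it was tested because of its knockout signal; it was higher in knockout at least 2.38-fold. Mrnip, a gene linked to DNA double-strand break repair, differed by 2.15 (SE 0.26, adjusted p = 0.0566), and Cln6, which encodes a membrane protein of the endoplasmic reticulum, by 1.89 (SE 0.27, adjusted p = 0.0745). Probes picked for likeness to Irs2 share its direction and rough size by selection, so the p-values of Mrnip and Cln6 are not further evidence. Likeness over 4 arrays describes these samples alone.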

How the data were processed

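Per the labels, biotin-labelled cRNA made from 500 ng of each liver RNA was hybridised to Illumina arrays. The authors deposited a scanner table with a linear intensity averaged over beads and the detection p-value of each probe on each array, with no background subtracted and equal array means; 4 rows without a probe ID were left out. The authors also deposited processed intensities, linear and partly below 0 (25.3% to 25.4% of values per array), with medians of 31.58, 31.61, 31.62 and 31.63. They rank probes within each array as the scanner table does (Spearman correlation 1), so a larger processed value stands for a larger signal on that array. Ranks do not show scale, and that these intensities are linear rests on their size and on the values below 0. How background and normalization were handled is not stated, and the processed intensities served as an alternative.

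Intensities were background-corrected from the detection p-values with an offset of 16, quantile-normalized and taken to log2 with neqc of limma 3.58.1 (R 4.3.3). Probes with a detection p under 0.05 on at least 2 arrays (12197) were fitted one by one with lmFit and eBayes, two-sided, with 2 residual and 3.37 prior degrees of freedom, and p-values were adjusted by Benjamini-Hochberg over all of them. The fit was tested on data simulated under its own assumptions, which cannot show whether these arrays meet them. Of the probes 23978 had 1 gene symbol, 0 several and 1719 none. The genes named are all members, Ptpn11, the up to 4 genes of each pathway list with the smallest p, and the 3 probes nearest to the member with the largest difference. Outside this rule, Pck1, G6pc, Ppargc1a, Pdk4, Fasn and Deptor were chosen after their values were seen. So were Ptpn2, Socs1, Trib1, Prkcq and the marker genes named as near or below background. Members, lists and tests were chosen with earlier results of these data known. The alternatives changed the background correction, normalization, source of values, detection filter, unit of the test and variance model, and left out each array in turn. A change of detection filter, unit of the test or variance model alone leaves the difference of a probe as it was and can move only its p. The number of arrays limits the precision.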

Additional observations from a re-analysis of the deposited data

How the results depend on the processing

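The number of called probes depended on the processing, from 46 (22 higher and 24 lower) as reported to 235 with normexp at an offset of 50, 269 with no background correction, 300 with eBayes with a trend, 83 for probes detected on all 4 arrays, 78 at a detection p under 0.01, 74 with 1 row per gene and 11 from the authors' processed values; it was 0 in each of the 4 fits that left out an array (range 0 to 0), where 1 group holds a lone sample assumed to vary like the other. Of the members, 1 was called with normexp (Irs2, difference 1.66), and 2 with no background correction (Irs2 at 1.39 and Pik3r1 ILMN_3114641 at -0.71) or with a trend (the same probes at 1.97 and -0.76). Of the other pathway probes, 1 was called with normexp or no background correction (Socs3) and 2 with a trend (Socs3 and Srebf1). Over the 9 member probes 112 of 122 values under alternatives were counted as having the reported direction and side of the threshold. Much of this count was fixed in advance. A change of detection filter, unit of the test or variance model alone could not turn a direction. The fits with an array left out could inform on direction alone. Igfbp1 without control replicate 2, at a difference of 0, was counted as unchanged. Direction turned for 5 of the 122 values, all with an array left out. Igf1r was -0.09 without control replicate 2 and -0.05 without knockout replicate 2, in a range up to 0.24. Igfbp1 ran from -0.8 to 1.28, and Igfbp2 ILMN_1236788 was 0.06 without control replicate 1 or knockout replicate 1, in a range down to -0.39. Inppl1 ran from -0.71 to 0.04. Leaving out quantile normalization shifted the median over all probes by 0.102, to 0.092, with Irs2 at 2.11 in that fit. The causes were not tested. No paired analysis was possible because the control labels carry no replicate number. Signal limits what can be said of Insr, Akt1 and Akt2, which lay at background.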
